A study of Mus musculus with 17 samples.

Results

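Neuron navigator 2 (Nav2), Ank2, Farp1, Tnik, Agap1, Snx29, Ttc7b, Gse1, Msi2 and Myt1l are 10 long genes, of 21887 protein-coding genes in the RefSeq table of the mouse assembly GRCm38.p6 (build mm10), over which H3K27ac peaks of the hypothalamus lay in long runs of closely spaced peaks. They were chosen by the number, covered length and joined extent of these same peaks. The number, spread and joined length of the peaks are therefore given as a description, with no test. All peaks that overlapped the span of each gene, from its lowest to its highest RefSeq coordinate, or the 100 kb on either side were taken, and their position, spacing, width and fold enrichment were read.

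The study profiled mouse hypothalamus in 17 samples: 7 DNA and 7 RNA sub-libraries from Paired-Tag, which reads RNA and histone marks (here H3K27ac and H3K27me3) in single nuclei, and 3 bulk CUT&Tag samples of H3K27ac titled as biological replicates. In CUT&Tag an antibody brings the transposase Tn5, fused to protein A, to marked chromatin in nuclei of the dissected tissue. The 3 bulk samples share a single deposited peak list, which is the only measurement used here. Paired-Tag data were not used here. The labels give tissue and antibody and name no treated or control group, and no strain, age or sex is given in the sources used here. The list carries no value per replicate and no read count, so the depth is unknown and no value below has a spread between animals. Since whole tissue was used, a mark present in fewer cells and a weaker mark in more cells cannot be told apart.

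H3K27ac, the acetylation of lysine 27 of histone H3, is laid down by the acetyltransferases p300 and CBP and marks active promoters and enhancers. It is removed by histone deacetylases, and the same lysine can instead be methylated by Polycomb complexes. Where many acetylated elements lie close together over a gene, they form a domain that is often found at genes important to a cell type. Several genes of this group act in neurons, in which long genes with many introns are widely expressed.

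Between 75 (Ttc7b) and 196 (Nav2) peaks lay in each of the 10 spans, and the peaks covered from 14.9% (Ank2) to 24.5% (Ttc7b) of the sequence. The medians over the group were 124.5 peaks and 20.9% covered, against 24 peaks and 7.54% over the 2429 protein-coding genes of 100 kb or longer. In 7 of the 10 genes at least 20% of the span was covered, where 6.55% of the genes of 100 kb or longer reached that share. Since these peaks chose the genes, nothing is read from the difference. In total 1223 peaks touched the spans, 0.666% of the 183678 peaks of the list, over 4111241 bp of genes.

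Joining all peaks closer than 12500 bp turned the list into 30668 domains, and the domain that held most of a gene was taken as its main domain. The main domains of the group were 357741 bp (Farp1) to 746660 bp (Nav2) long, with a median of 485822 bp. Over all protein-coding genes the median was 20504 bp, and 1.22% of them had a main domain at least as long as that of Farp1. The group is not simply the head of the list: only 5 of the 10 were among the 100 protein-coding genes with the most covered bp in their main domain, genes that share a domain being counted each. Outside the group and its domains, the 3 domains with the most covered bp that were main domains of protein-coding genes measured 883562, 576796 and 622115 bp. The genes with the longest stretch in them were Sorcs2, Ctif and 2900026A02Rik, and 9, 3 and 8 protein-coding genes shared each as their main domain. Among all 30668 domains, that of Nav2 was the second longest and those of the others ranked from 7 (Snx29) to 61 (Farp1), so the genes have long acetylated domains but not in every case the longest. Domains were shorter with a stricter set of peaks: at a −log10 q of at least the list's median, the group had medians of 65.5 peaks per span and 160411 bp per domain. With only peaks far from gene ends joined (summits over 2500 bp away), 8 of the 10 were among the top 100, and with a joining distance of 25 kb, 1 was.

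**Figure D1:**
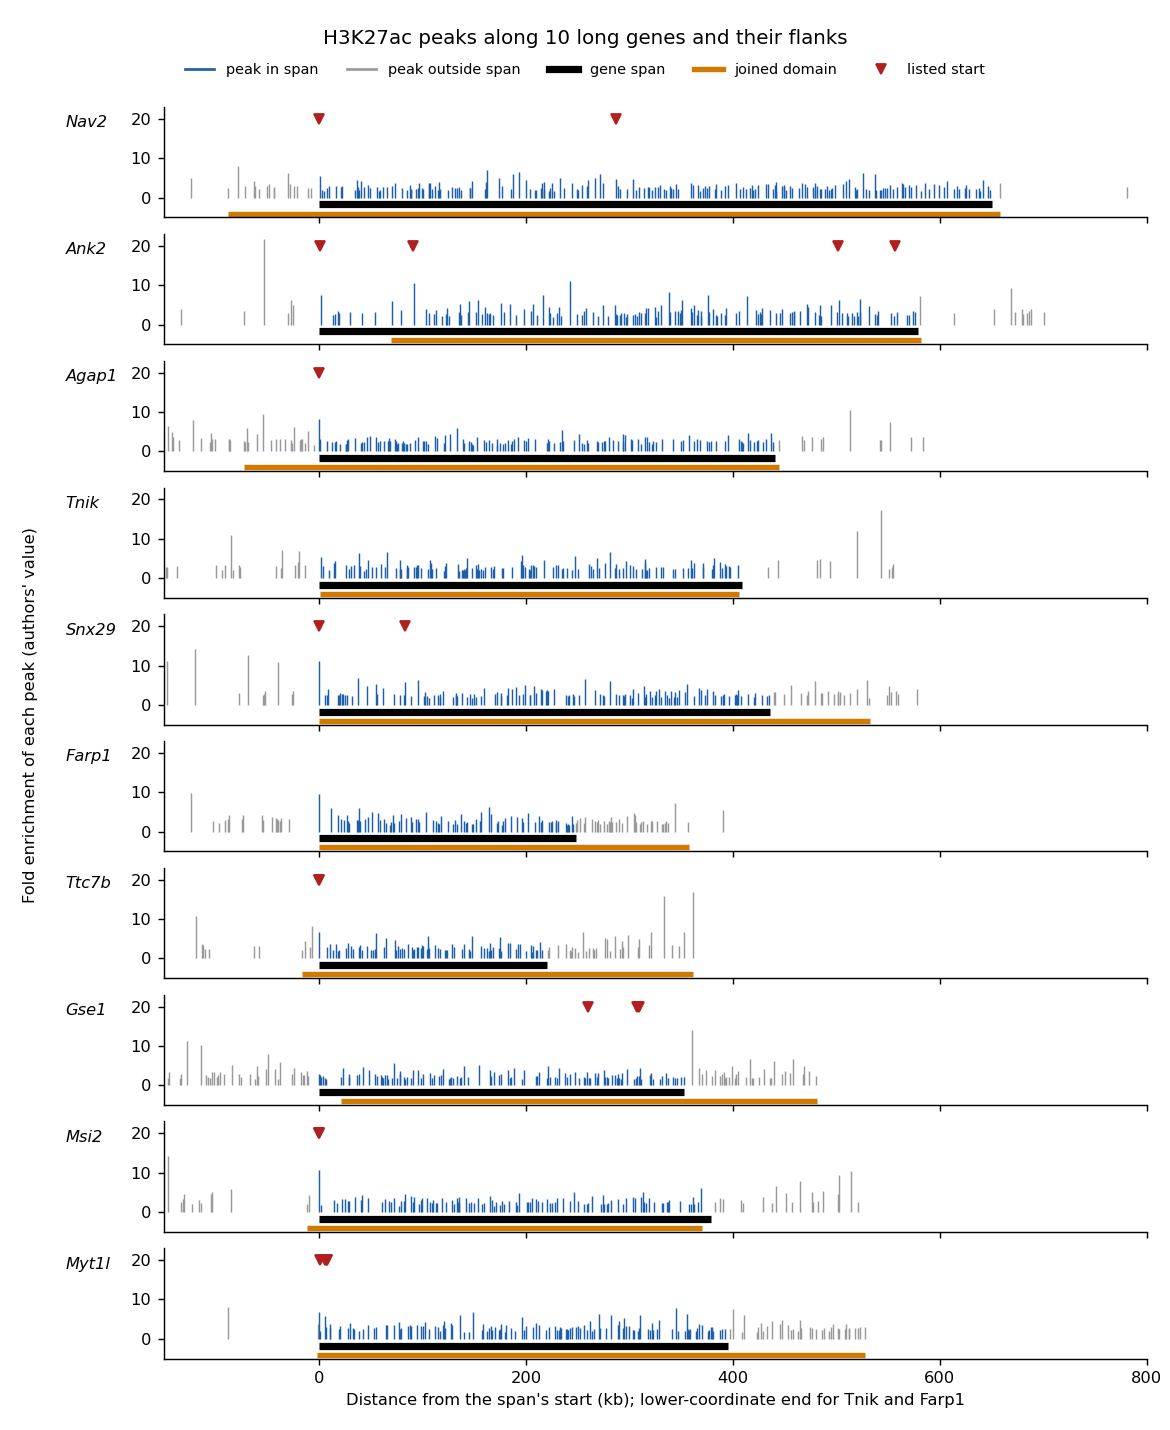
Each vertical line is a peak, placed by its distance from the start of the gene span in kb (from the lower coordinate for Tnik and Farp1) and as high as its fold enrichment, a value of the authors' peak caller; lines in the span are blue and lines outside it grey. The black bar is the gene span, the orange bar its main joined domain and the triangles the listed transcript starts. Peaks run the length of every span, and the orange bar passes both ends in 6 of the 10 genes.

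The fold enrichment is the authors' value for each peak and serves here only to rank and describe peaks within this list. By fold, peaks of these genes were lower than those of the list as a whole. The median fold of the peaks in the spans was 2.76, below the 3.18 of the whole list, and the median of each of the 10 genes lay below it as well. A fold of 5 or more was reached by 6.38% of the peaks in the spans (78 of 1223), against 16.9% of the list. By −log10 q the peaks were not lower in most of the genes. Of a median of 124.5 peaks per span, a median of 65.5 lay at or above the list's median −log10 q. In Ank2 (69 of 144), Tnik (58 of 124) and Snx29 (63 of 127) fewer peaks did so than did not, and in the other genes most did. Widths were like those of the list, with a median of 557 bp in both. They lay closer together, however. The median gap between neighbouring peaks inside a span was 1959 bp as the median over the 10 genes, where the gap over the list had a median of 3761 bp. Nothing is read from this difference in spacing, since the number and joined extent of these peaks chose the genes.

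For 8 of the 10 genes RefSeq's table of promoter windows of the same assembly gave a strand and the transcript starts. It held 22 starts of these genes. Farp1 and Tnik had no entry, so their positions are counted from the lower coordinate. Each window runs from 250 bases before to 50 bases after a start, and 7 motifs were searched in it on both strands. They were the GC box (GGGCGG), the CCAAT box (CCAAT), the cAMP response element (TGACGTCA), the NRF1 motif, an ETS motif (CCGGAAG), the E-box (CACGTG) and the TATA box (TATAAA). Of all 32817 windows in the table, 35.63% held the GC box, 37.39% the CCAAT box, 1.792% the cAMP response element, 0.966% the NRF1 motif, 8.855% the ETS motif, 7.149% the E-box and 13.62% the TATA box. In the windows printed below, 5′ to 3′ on the strand of the gene, capitals mark the matches. A match is a run of letters and not a site known to be bound. The median of all windows is 7 CpG. The windows shown were picked after the values were seen: a window at each of the 4 strongest start peaks (Snx29, Msi2, the second start of Ank2 and Agap1), and the second start of Snx29, the upstream start of Ank2 and both starts of Nav2, so that an upstream and an internal start of these genes can be compared in CpG content.

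The first 4 genes code for proteins of the cytoskeleton and its links to the membrane. Nav2 is a neuron navigator, a protein that acts on the cytoskeleton in neurite outgrowth. Nav2 (gene ID 78286) lies on the plus strand at chr7:48959063-49610090, 651028 bp, and was the longest of the group. Its 196 peaks covered 141944 bp, 21.8% of the span, and the widest stretch without a peak was 11939 bp. The main domain at chr7:48870819-49617478 held 213 peaks, began 88244 bp before the start and ended 7388 bp past the far end. The fold of the peaks in the span ran from 1.67 to 6.99 with a median of 2.70. The strongest peaks of Nav2 were not at its start. The peak over the start was 2244 bp wide with a fold of 5.66, which ranked 7 in the gene. The highest fold, 6.99, belonged to a peak of 670 bp at chr7:49120867-49121536, 162327 bp into the gene and within 1 kb of an end of the noncoding gene 9130015G15Rik. Other peaks of the body were close behind, with folds of 6.61 at 193406 bp, 6.31 at 525479 bp and 6.16 at 537227 bp from the start. The internal start lies 287126 bp into Nav2 and had a peak of fold 4.79, and the widest peak of the gene (2291 bp, fold 2.88) lay just past it, at 288274 bp. Its window had 42 CpG and 2 CCAAT matches, while the window of the upstream start had 12 CpG with 1 GC box and 1 CCAAT match. The weaker of these peaks thus lay over the window richer in CpG.
Nav2 upstream start, chr7:48958823-48959122, plus strand: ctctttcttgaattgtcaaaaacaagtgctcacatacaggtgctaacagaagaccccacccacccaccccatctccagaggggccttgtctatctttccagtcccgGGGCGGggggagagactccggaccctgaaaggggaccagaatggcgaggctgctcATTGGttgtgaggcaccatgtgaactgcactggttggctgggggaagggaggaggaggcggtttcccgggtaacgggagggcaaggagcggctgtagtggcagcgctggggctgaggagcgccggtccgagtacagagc
Nav2 internal start, chr7:49245939-49246238, plus strand: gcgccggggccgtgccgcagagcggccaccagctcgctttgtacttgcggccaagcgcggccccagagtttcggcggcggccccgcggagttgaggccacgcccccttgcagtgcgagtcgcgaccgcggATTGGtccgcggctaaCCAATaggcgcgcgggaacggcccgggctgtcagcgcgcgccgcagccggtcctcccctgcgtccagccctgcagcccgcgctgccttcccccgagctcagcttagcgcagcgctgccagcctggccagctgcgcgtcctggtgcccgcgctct

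Ank2 codes for ankyrin-B, which ties membrane proteins to the spectrin skeleton. Its span (gene ID 109676, minus strand) is chr3:126921607-127500347, 578741 bp. Of the 10 genes it had the lowest share covered, 14.9% by 144 peaks, but the highest median fold, 3.15, which was still under that of the list. Its main domain (chr3:126918532-127430382, 511851 bp, 137 peaks) did not reach the upstream start. It stopped 69965 bp inside the gene, at a stretch of 15752 bp without a peak (chr3:127430383-127446134), and ended 3075 bp past the far end. The part between this gap and the start held few peaks: of 5 equal parts of the span, the part nearest the start had 10.4% of the summits and 10.7% of its sequence covered, the lowest values for that part among the 10 genes. A peak of 1952 bp and fold 7.58 still lay over the upstream start. The second listed start, 91289 bp into the gene, had a stronger peak of fold 10.5 (chr3:127407961-127409514, 1554 bp), which also touched the end window of the noncoding gene Gm52631. The highest fold of the gene, 11.1, was reached away from every listed start, 242694 bp into the gene at chr3:127257382-127258230. The peak with a fold of 8.36 at 338162 bp overlapped the end window of another noncoding gene, Gm16958. At the other listed starts, 501895 and 556961 bp into the gene, the folds were 6.17 and 2.30. Ank2 had 19 peaks with a fold of 5 or more, the most of the group. The window of the upstream start held 21 CpG, a TATA box and a CCAAT match, and that of the second start, with the higher fold, held 5 CpG and 1 CCAAT match.
Ank2 upstream start, chr3:127499066-127499365, minus strand: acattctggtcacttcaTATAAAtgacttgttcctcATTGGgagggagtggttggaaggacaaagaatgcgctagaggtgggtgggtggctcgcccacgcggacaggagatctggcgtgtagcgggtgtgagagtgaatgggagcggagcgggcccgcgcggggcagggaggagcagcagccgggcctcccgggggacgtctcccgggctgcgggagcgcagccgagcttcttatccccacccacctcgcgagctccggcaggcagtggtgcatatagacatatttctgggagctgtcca
Ank2 second start, chr3:127409009-127409308, minus strand: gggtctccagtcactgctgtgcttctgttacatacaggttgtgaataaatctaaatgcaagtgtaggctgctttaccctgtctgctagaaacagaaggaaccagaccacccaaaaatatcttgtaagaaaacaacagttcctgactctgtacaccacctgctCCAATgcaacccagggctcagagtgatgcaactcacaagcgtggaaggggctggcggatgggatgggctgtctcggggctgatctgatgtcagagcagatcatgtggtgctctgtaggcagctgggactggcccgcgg

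Farp1 codes for a guanine nucleotide exchange factor with a FERM domain that acts on dendrites and synapses. The gene (gene ID 223254) spans chr14:121035168-121283744, 248577 bp, with no strand given in the tables used. It held 78 peaks over 21.7% of the span. The strongest lay at the lower end, with a fold of 9.62 over 1561 bp (chr14:121034794-121036354), and was followed by the widest gap of the gene, 9808 bp. The next folds were 6.19 at 163911 bp and 6.10 at 11345 bp. The widest peak, 2609 bp and the widest of all 10 genes, had a fold of 5.05 and lay 102510 bp in. The main domain (chr14:121034794-121392534) went 374 bp past the lower end and 108790 bp past the higher end, across Stk24, which codes for a serine/threonine kinase and begins 443 bp from Farp1. Stk24 had 35 peaks over 24.5% of its span, so the domain counts 2 neighbouring genes rather than Farp1 alone. Of the 37 domain peaks outside Farp1, 36 lay in or within 1 kb of another protein-coding gene.

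Tnik is a serine/threonine kinase of the postsynaptic density that acts in Wnt signalling and on actin. The gene (gene ID 665113) spans chr3:28261901-28670585, 408685 bp, with no strand given in the tables used. It held 124 peaks over 18.1% of the span, and all of them belonged to the main domain (chr3:28262448-28667730, 405283 bp). The domain stopped 547 bp inside the lower end and 2855 bp inside the higher end, which made Tnik the only gene of the group whose domain held no peak outside the span. Peaks were narrow, with a median width of 476.5 bp, the lowest of the 10. The widest was the peak at the lower end, 2393 bp with a fold of 5.30. The highest fold, 6.74, was found 281822 bp in (chr3:28543093-28544056), followed by 6.52 at 66416 bp and 6.28 at 38712 bp.

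The next 3 genes act in membrane traffic and lipid signalling. Agap1 is a GTPase-activating protein for Arf that binds the AP-3 adaptor of endosomes. Agap1 (gene ID 347722) lies on the plus strand at chr1:89454811-89895282, 440472 bp. It held 132 peaks over 20.8% of the span. A peak over the start (chr1:89453903-89455198, 1296 bp) had a fold of 8.32 and stood alone: the next folds were 5.81 at 132622 bp and 5.34 at 234330 bp, and only 3 peaks of the gene reached 5. The folds in the rest of the gene were low, and the median over all its peaks was 2.66. The main domain (chr1:89382092-89899489, 517398 bp) began 72719 bp before the start and ended 4207 bp past the far end. No other protein-coding gene touched it, and the 20 peaks outside the span reached a fold of 9.39, more than that of the start. The start window held 50 CpG, the most of the 22 windows, and 5 GC boxes.
Agap1 start, chr1:89454561-89454860, plus strand: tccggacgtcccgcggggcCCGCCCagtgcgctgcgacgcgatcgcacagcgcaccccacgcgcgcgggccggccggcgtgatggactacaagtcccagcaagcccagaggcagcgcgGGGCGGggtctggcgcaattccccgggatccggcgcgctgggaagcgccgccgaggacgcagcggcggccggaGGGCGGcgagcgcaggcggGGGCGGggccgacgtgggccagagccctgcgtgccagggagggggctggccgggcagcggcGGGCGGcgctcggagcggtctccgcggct

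Snx29 belongs to the sorting nexins, proteins whose PX domain binds membrane phosphoinositides. On the plus strand, Snx29 (gene ID 74478) spans chr16:11322861-11759095, 436235 bp. Its 127 peaks covered 21.0% of the span. The peak over the start (chr16:11322441-11324017, 1577 bp) had a fold of 11.2, the highest in any of the 10 spans, and its lower edge was also the edge of the domain, which therefore began 420 bp before the gene. On the other side the domain (chr16:11322441-11855081, 532641 bp) ran 95986 bp past the far end into Cpped1, which codes for a phosphatase. In the body the next folds were 6.77 at 37238 bp and 6.48 at 257011 bp. The second listed start, 82787 bp into the gene, had a peak of 373 bp with a fold of 5.77. Its window held 1 CpG and 1 CCAAT match. The window of the upstream start held 29 CpG, 2 GC boxes, 1 CCAAT match and 1 ETS match, the last sharing a G with a GC box.
Snx29 upstream start, chr16:11322654-11322953, plus strand: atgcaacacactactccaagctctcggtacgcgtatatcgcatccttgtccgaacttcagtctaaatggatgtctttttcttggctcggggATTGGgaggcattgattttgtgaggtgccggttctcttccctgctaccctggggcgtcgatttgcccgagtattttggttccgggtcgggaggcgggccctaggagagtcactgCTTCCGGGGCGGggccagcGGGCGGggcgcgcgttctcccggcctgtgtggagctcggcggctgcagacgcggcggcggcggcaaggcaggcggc
Snx29 second start, chr16:11405398-11405697, plus strand: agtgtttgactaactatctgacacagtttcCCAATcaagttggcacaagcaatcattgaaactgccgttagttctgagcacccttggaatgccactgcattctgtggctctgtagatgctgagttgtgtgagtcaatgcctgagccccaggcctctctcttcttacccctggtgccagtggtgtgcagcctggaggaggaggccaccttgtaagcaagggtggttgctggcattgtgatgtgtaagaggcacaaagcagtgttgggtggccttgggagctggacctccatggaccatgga

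Ttc7b codes for a scaffold that holds the lipid kinase PI4KA at the plasma membrane. The gene (gene ID 104718) lies on the minus strand at chr12:100300770-100520837 and, at 220068 bp, was the shortest of the group. It had the fewest peaks, 75, but the highest share covered, 24.5%, and the densest peaks, 3.41 per 10 kb with a median gap of 1354 bp. The start peak (1743 bp) had a fold of 6.83, and the next folds were 6.35 at 55351 bp and 5.74 at 105711 bp into the gene. The main domain (chr12:100159237-100537377) was 378141 bp long and reached 16540 bp before the start. It also went 141533 bp past the far end, the longest extension of the 10 genes. This stretch ended at Nrde2, whose end peak had a fold of 16.9, above every peak of Ttc7b itself. A short protein-coding gene, Gm36375, lies inside Ttc7b and had 33.9% of its span covered.

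The last 3 genes code for proteins that regulate genes or RNA. Gse1 is a coiled-coil protein found in complexes with histone deacetylases and CoREST. On the plus strand, Gse1 (gene ID 382034) spans chr8:120228501-120581383, 352883 bp. Its peaks were dense and of low fold. The 114 peaks covered 24.3% of the span, with a median fold of 2.31, the lowest of the group. A fold of 5 or more was reached by 2 peaks. By −log10 q they were not low, with 73 of the 114 at or above the list's median. Gse1 had no strong peak at either end of its span, the folds there being 2.80 and 2.04. The 3 listed starts lie deep in the gene, at 260365, 307356 and 308908 bp, and the highest folds within 1 kb of them were 3.26, 2.46 and 4.47. The highest fold of the gene, 5.60, lay 72453 bp in (chr8:120300396-120301246), 187912 bp from the nearest listed start. The start windows held 17, 23 and 37 CpG. The main domain (chr8:120249722-120709514, 459793 bp) began 21221 bp inside the gene, after a gap of 14489 bp. It went 128131 bp past the far end over 5 other protein-coding genes, the nearest being Gins2, a subunit of the replicative GINS complex that overlaps the end of Gse1, then Gm27021 and 1190005I06Rik. The end peak of Gins2 had a fold of 14.1.

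Msi2 is an RNA-binding protein of the Musashi family. The gene (gene ID 76626) lies on the minus strand at chr11:88339382-88718306, 378925 bp, and held 108 peaks over 19.3% of its span. The start peak (chr11:88717727-88719164, 1438 bp) had a fold of 10.6, far above the next ones of 6.22 at 369387 bp and 5.21 at 246078 bp. It is shared with an end of the noncoding gene C030037D09Rik. The main domain (chr11:88348521-88730368, 381848 bp) began 12062 bp before the start and stopped 9139 bp short of the far end, and no other protein-coding gene touched it. The 3 listed starts lie within 77 bp of the end of the span, so they share this peak. Of the 22 windows, those of Msi2 alone held the cAMP response element or the E-box. The window of the outermost start held 39 CpG, 3 GC boxes, 1 CCAAT match, 1 cAMP response element and 2 E-boxes, the upstream E-box directly following a GC box.
Msi2 outermost start, chr11:88718228-88718527, minus strand: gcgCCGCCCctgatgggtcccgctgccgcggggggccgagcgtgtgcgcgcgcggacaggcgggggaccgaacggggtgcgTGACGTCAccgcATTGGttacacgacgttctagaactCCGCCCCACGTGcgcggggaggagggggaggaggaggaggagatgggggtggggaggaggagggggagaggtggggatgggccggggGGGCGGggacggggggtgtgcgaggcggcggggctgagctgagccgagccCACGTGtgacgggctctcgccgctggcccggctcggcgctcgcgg

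Myt1l is a zinc finger protein of neurons that represses genes of other lineages. The gene (gene ID 17933) lies on the plus strand at chr12:29527590-29923216, 395627 bp, and held 125 peaks over 20.2% of its span. The highest fold, 7.88, was far from the start, 344933 bp into the gene (chr12:29871807-29872879). The peak at the start of the span followed with 6.93, and it also overlapped an end of the noncoding gene Gm20208. Next came a peak of 6.76 at 148614 bp, at the noncoding gene C630031E19Rik. The 5 listed starts lie 794 to 7632 bp into the gene, with highest folds of 6.93, 5.80, 5.80, 3.11 and 3.11. Their windows held 4 to 13 CpG, and only 2 of the 5 held more than the median window. The main domain (chr12:29526110-30055290, 529181 bp) began 1480 bp before the start and ended 132074 bp past the far end. On that side it crossed Pxdn, the peroxidasin gene 13426 bp away, with 20 peaks over 22.98% of its span.

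An end of the span had a peak within 1 kb in all 10 genes, as in 69.2% of all protein-coding genes and 86.3% of those of 100 kb or longer. Both ends had one in 4 genes (Snx29, Farp1, Ttc7b and Gse1), against 23.2% of all protein-coding genes. Nothing is read from these counts, since 62.2% of all bases in the 10 spans had a peak within 1 kb. For the 8 genes with a strand, 8 had a peak at the start of the span and 3 at the far end. In Gse1 the start of the span is not a listed transcript start, and the peak there had a fold of 2.80. At the far ends the folds were low: 2.60 in Snx29, 2.06 in Ttc7b and 2.04 in Gse1. A peak lay within 1 kb of all 22 listed starts, as it did for 69.2% of the 21263 listed starts of protein-coding genes, and 20 of the 22 windows were themselves overlapped. The starts are not separate counts: the 3 of Msi2 share a peak, as do the 2 of Ttc7b. The limit of 62.2% of bases near a peak holds here too. In 5 genes (Agap1, Snx29, Farp1, Ttc7b and Msi2) the strongest peak lay at the start of the span, or at the lower end for Farp1, with folds of 6.83 to 11.2. In the other 5 (Nav2, Ank2, Tnik, Gse1 and Myt1l) it lay 72453 to 344933 bp in. The window with the fewest CpG that carried a fold of 10 or more was the second start of Ank2, with 5.

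**Figure D2:**
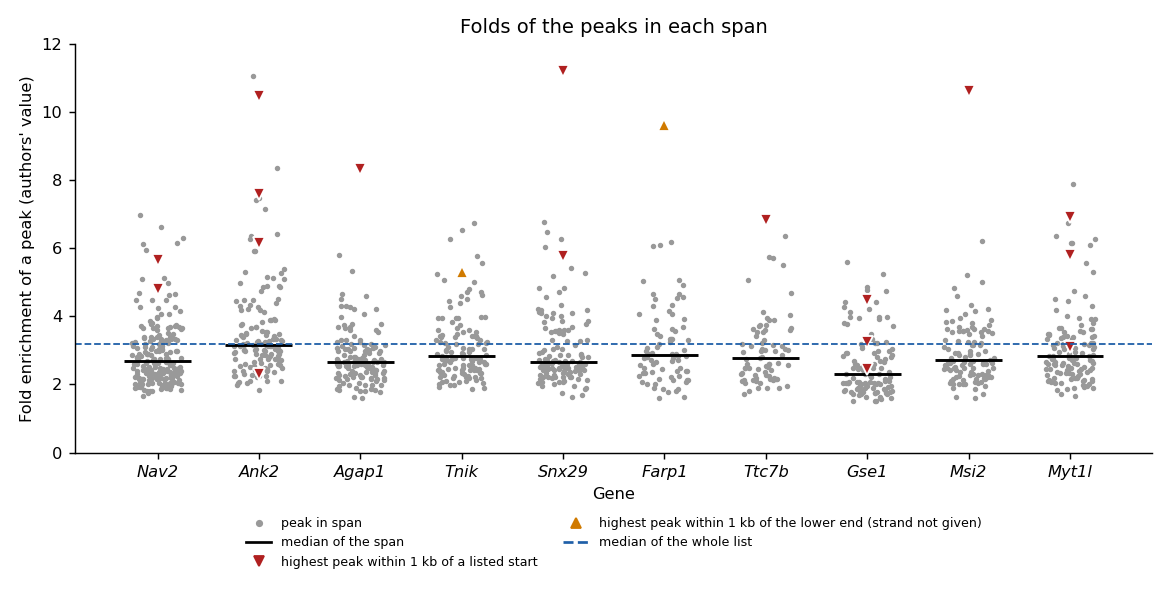
Fold enrichment (authors' value) of every peak in the span of each gene, with the median of the gene as a black bar and the median of the whole list, 3.18, as a dashed line; red triangles are the highest peaks within 1 kb of a listed start and orange triangles those at the lower end of Farp1 and Tnik, which have no listed start. In Snx29, Msi2, Farp1 and Agap1 the triangle stands well above all other peaks, while in Gse1 the triangles lie among them.

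Along the gene the peaks were spread evenly. The choice of the genes by their long joined runs of peaks largely fixed this, and other long genes were not cut into parts for comparison. When each span was cut into 5 equal parts from its start, the parts held medians of 18.2%, 20.3%, 19.9%, 20.3% and 19.2% of the summits. With only peaks of a fold at or above the list's upper quartile, the part nearest the start held a median of 13.75%. The share of sequence covered had medians of 19.5%, 20.9%, 20.3%, 21.1% and 19.4%. Neither the part at the start nor the part at the far end thus held more peaks than the middle. Single genes departed from this. Ank2 was sparse at its start, as described above, Msi2 had 14.95% of its summits in the part nearest the start and 26.2% in the next, and Gse1 had 13.3% in its middle part. In Agap1 the part at the start held the most, 25.2%. The median fold of the parts was also flat, at 2.93, 2.69, 2.78, 2.77 and 2.60 from start to end. The highest fold in the part at the start exceeded that of every other part in Agap1, Snx29, Farp1, Ttc7b and Msi2.

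**Figure D3:**
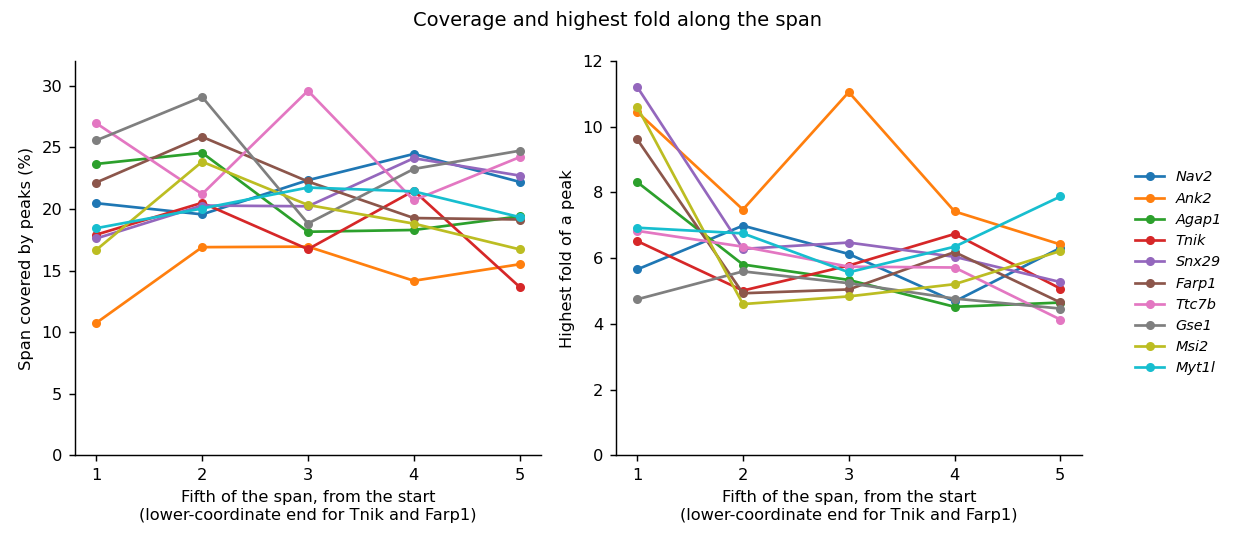
Left, percent of the sequence covered by peaks in each of 5 equal parts of the span, counted from the start (from the lower coordinate for Tnik and Farp1); right, the highest fold enrichment (authors' value) in each part. Each line is a gene. Coverage stays between 10.7% and 29.6% in every part, whereas the highest fold falls after the part at the start in Snx29, Msi2, Farp1 and Agap1.

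Gaps between neighbouring peaks ran from 152 bp to 15752 bp. The median gap of a gene lay between 1354 bp (Ttc7b) and 2285 bp (Ank2), and 26.6% (Ank2) to 39.2% (Ttc7b) of the gaps were under 1 kb, against 22.6% over the list. As the joined extent of these peaks chose the genes, nothing is read from that contrast. Only 2 of the 1213 gaps were wider than 12500 bp, those of Ank2 and Gse1 toward the starts of their spans. These gaps set where the main domains of both genes stopped. Gaps over 5 kb numbered 193. With a joining distance of 5 kb the median main domain was therefore 61646 bp in place of 485822 bp, and with 25 kb it was 690462 bp. At 25 kb the domain of Gse1 grew to 2472289 bp, while those of Nav2, Farp1 and Myt1l kept their length of 746660, 357741 and 529181 bp.

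Widths in the spans ran from 147 to 2609 bp, and 19.2% of the peaks were over 1000 bp wide, against 19.8% of the list. The median width per gene ranged from 476.5 bp (Tnik) to 653 bp (Snx29). In none of the 10 genes was the widest peak also the strongest. The widest peaks had folds from 2.88 (Nav2) to 6.16 (Myt1l) and lay inside the gene, that of Tnik close to its lower end. Across the peaks of a gene, which are not independent replicates, width and fold had a Spearman correlation between 0.318 (Tnik) and 0.647 (Ttc7b), and over the list it was 0.503.

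Peaks in the 100 kb on either side of a gene mostly had higher folds than those in its span. Their −log10 q was not compared. The flanks held 10 (Ank2) to 51 (Farp1 and Gse1) summits per gene. The median fold in the span was below that of the flanks in 9 of the 10 genes, with a median difference of -0.416. The largest difference was in Ank2 (3.15 in the span and 4.497 in the flanks, -1.35), whose upstream flank held a peak of fold 21.8. The exception was Farp1, with 2.86 in the span and 2.77 in the flanks, of which 1 is largely filled by Stk24. In width the median difference was -75.5 bp, and 7 of 10 genes had narrower peaks in the span. The sign of this difference did not hold when flank peaks within 1 kb of the ends of other genes were left out (2.5 bp). The 2 flanks of a gene were often unlike: Nav2 had 16 peaks upstream and 1 downstream, Myt1l 2 upstream and 25 downstream, and Snx29 8 upstream and 20 downstream.

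The main domain passed both ends of the gene in 6 of the 10 (Nav2, Agap1, Snx29, Farp1, Ttc7b and Myt1l), against 31.0% of all protein-coding genes and 11.7% of those of 100 kb or longer. Among the 742 protein-coding genes in the length range of the group the share was 6.87%. Since the joined extent of the peaks chose the genes, nothing is read from these differences. With a joining distance of 5 kb the main domain passed both ends in 0 of the 10 genes. The longer extension was past the far end in Snx29, Ttc7b and Myt1l, and before the start in Nav2 and Agap1. The 10 domains held 203 peaks outside the spans. Of these 98 lay in or within 1 kb of another protein-coding gene, and 130 did so when noncoding genes were counted too. The domains of Ank2, Agap1, Tnik and Msi2 touched no other protein-coding gene. Those of Farp1, Ttc7b, Gse1 and Myt1l went more than 100 kb past an end and over other protein-coding genes, so that their length is not that of the named gene alone. Peaks at the neighbours could exceed those of the gene itself, as the folds of 16.9 at Nrde2, 14.1 at Gins2 and 8.19 at E2f8, a transcription factor of the cell cycle 76990 bp before Nav2, show. Cpped1, beyond Snx29, had an end peak of fold 16.2, but this peak lay past the end of the Snx29 domain. Within that domain the peaks outside the span reached a fold of 6.34.

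Inside the spans lie 29 other genes, of which 21 are long noncoding RNA genes. A peak within 1 kb of an end was found at 27 of them, against 34.0% of all genes that are not protein-coding. Nothing is read from this count, since 62.2% of all bases in the 10 spans had a peak within 1 kb and each gene has a pair of ends. The highest folds there were 10.5 at Gm52631 and 8.36 at Gm16958 in Ank2, 6.99 at 9130015G15Rik in Nav2 and 6.76 at C630031E19Rik in Myt1l. Gm32849 in Nav2 and Gm11510 in Msi2 had no such peak. The list cannot tell to which gene such a peak belongs.

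Other genes of this length usually had fewer peaks. Between 220068 and 651028 bp, the range of the 10 genes, lay 742 protein-coding genes, with a median of 38 peaks and 6.88% covered. Within this range Ttc7b ranked 4 and Gse1 5 by share covered, Nav2 10, Farp1 11, Snx29 19, Agap1 21, Myt1l 26, Msi2 45, Tnik 67 and Ank2 153. By length of the main domain they ranked from 2 (Nav2) to 43 (Farp1). Ank2, with a rank of 10 by domain length, thus stood high by the length of its run of peaks and lower by their density. By covered bp in the span, Nav2 ranked 3 of all protein-coding genes.

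**Figure D4:**
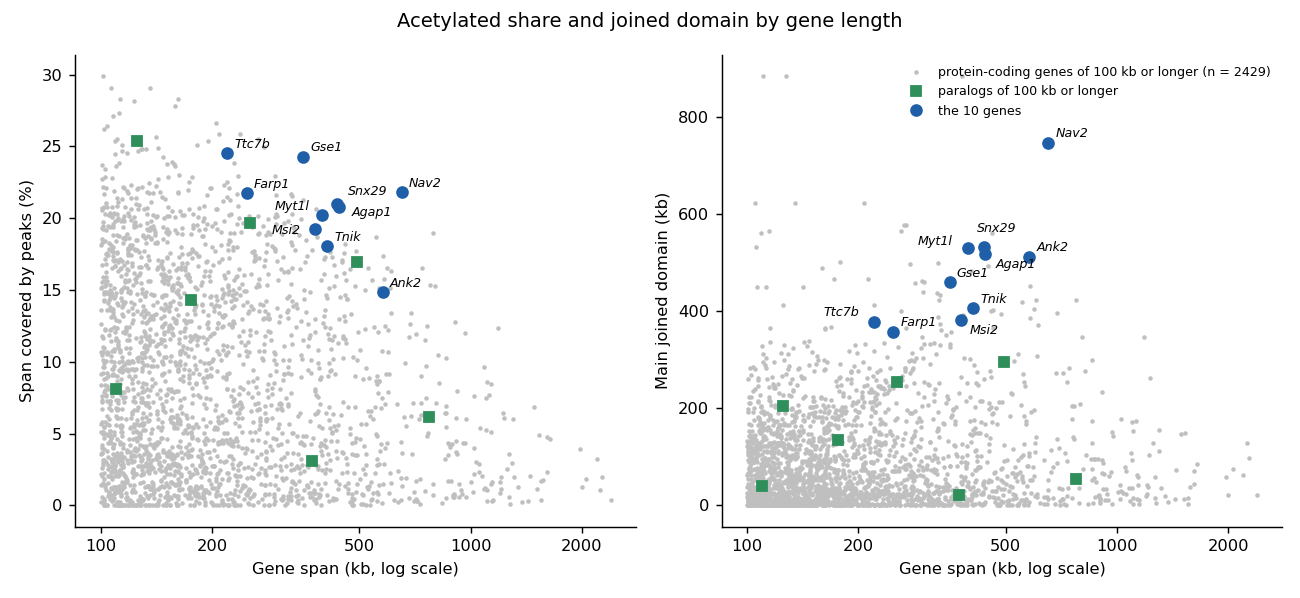
Left, percent of the gene span covered by peaks against span length in kb (log axis); right, length of the main joined domain in kb against the same axis. Grey points are the 2429 protein-coding genes of 100 kb or longer, blue points the 10 genes and green squares their paralogs of that length. By domain length the blue points lie near the top of their length range, and by share covered they spread from 14.9% (Ank2) to 24.5% (Ttc7b).

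The 13 paralogs of 8 of these genes varied widely. Each had a shorter main domain than its relative in the group, which the choice of the genes by domain extent largely fixed, since 1.22% of all protein-coding genes had a domain as long as that of Farp1. With a joining distance of 5 kb, or with either stricter set of peaks, 11 of 13 were shorter, and with 25 kb 12 were. In 8 of 13 a lower share of the span was covered. The median share was 16.96% and the median domain 80124 bp. The other neuron navigators differed from each other: Nav1 had 73 peaks over 19.7% of 253771 bp and a domain of 254211 bp, while Nav3, longer than Nav2 at 774463 bp, had 91 peaks over 6.14% and a domain of 54549 bp. Ank3, which codes for the ankyrin of the axon initial segment and nodes of Ranvier, had 122 peaks over 16.96% of 493951 bp, a higher share than Ank2, in a domain of 295332 bp, the longest of the 13. Ank1, the ankyrin gene named for red cells, had 14.3% covered and a domain of 134974 bp. St18, a relative of Myt1l, had 18 peaks over 3.06% of 373710 bp, and Myt1, the other relative, had 15.7% covered and no peak at either end, the only paralog of the 13 without one. Farp2 had 8.07% covered and a domain of 39722 bp, though its end peak had a fold of 13.04. Msi1 had 10.0% covered and a domain of 25723 bp, and Ttc7 20.1% and 56298 bp.

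Higher shares than in the relative were found in 5 paralogs, 4 of them with spans of 17902 to 125409 bp. They were Agap2 (32.7%, domain 74269 bp), Agap3 (23.4%, 185974 bp), Mink1 (22.3%, 82548 bp), Map4k4 (25.4%, 205032 bp) and Ank3. Agap2 and Agap3 are Arf GTPase-activating proteins of the brain, and Mink1 and Map4k4 are kinases of the same family as Tnik.

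Partner genes, whose products bind or act with those of the group, were compared from a list of 30. A peak at an end was found at 30 of 30, against the 69.2% of all protein-coding genes, and their median share covered was 12.3%. The partners were chosen with earlier results of these data known, so nothing is read from this count. The highest end folds were 17.1 at Hdac2, a histone deacetylase of the CoREST complex with Gse1, 16.1 at Ap3s1, a subunit of the AP-3 adaptor bound by Agap1, and 15.9 at Numb, a target of Musashi proteins. The main domains of these 3 genes were 18803, 41981 and 52732 bp long. The 7 AP-3 genes had a median of 12.7% covered and the 5 genes of the LSD1-CoREST complex 8.67%. The 5 genes of the PI4KA complex had 7.87%, the 4 partners of Tnik 15.4% and the 5 of Ank2 13.7%. Cadm1, the synaptic adhesion protein that works through Farp1, was the exception by length: 101 peaks covered 19.4% of its 332111 bp, and its domain of 433260 bp was longer than that of Farp1. Its value was picked out after it was seen.

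Marker genes were checked against the labelled tissue, with the share of 69.2% over all protein-coding genes as background. A peak lay at an end of 11 of 11 hypothalamic genes, 5 of 5 neuronal genes, 4 of 4 oligodendrocyte genes, 1 of 2 precursor genes, 3 of 4 astrocyte genes and 2 of 3 microglial genes. Pdgfra, Aqp4 and P2ry12 were the brain markers without one. Of 6 genes of other organs, 2 (Sftpc and Ckm) had such a peak and Alb, Ahsg, Ins2 and Myh6 had none. The median end fold of those 2 was 9.21, against 9.17 for the neuronal and 5.49 for the hypothalamic genes. All lists of brain cells thus held marked genes, but they have 2 to 5 genes each, too few to be told apart from the background. The cell type in which each run of peaks arose was not tested.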

How the data were processed

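The peak list deposited by the authors for the 3 bulk CUT&Tag samples together was used; samples were grouped by their titles, and the 14 Paired-Tag sub-libraries were left out. Per the submitters' processing notes, which give neither roles nor order, the tools were STAR 2.7.10a, BWA 0.7.17, UMI-tools 1.1.4, MACS2 (its version not named) and cutadapt 4.5, and the build was mm10. Neither the caller settings nor the rule that combined replicates is given in the sources used here. Columns of the deposited list, which has no header, were read in narrowPeak order: the score deposited by the authors was not used further, the fold ratio deposited by the authors describes peaks, and the −log10 q deposited by the authors defines a stricter set. A stricter peak threshold shortens the domains, as the alternatives show. The depth is unknown.

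Gene spans came from RefSeq's table of GRCm38.p6, and strands, starts and windows from its promoter table, which matched 8 of the 10 genes. A peak counted in a span when it overlapped it by 1 bp. Gaps of up to 12500 bp were joined. An end peak lay at least partly within 1 kb of an end of the span, and flanks were 100 kb. Python 3.11.15 with pandas 2.3.3 was used, and the interval code was checked on simulated data. No test was run. The 10 genes, paralogs, partners and markers were chosen with earlier results of these data known. Named are all 10 genes, all paralogs, the 3 partners of highest end fold, up to 3 neighbours per domain and, counting each domain once, the gene with the longest stretch in each of the 3 other domains with the most covered bp; noncoding genes inside the spans were named after their values were seen. Some genes under this rule are not reported here. Exons and introns were not used here. The alternatives tried were stricter peak thresholds, other joining distances, windows and flanks, joining only peaks away from gene ends, and requiring the summit in the span.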

Additional observations from a re-analysis of the deposited data

How the results depend on the processing

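Of 50 values from 13 results under 12 alternative settings, 26 stayed within 1.5 times (counts) or within the SD over the 10 genes (medians), 22 moved further and 2 changed sign. With only peaks of a −log10 q at or above the list's median (13.1), the medians were 65.5 peaks, 13.5% covered, a domain of 160411 bp, a gap of 4118 bp, a fold difference between span and flanks of -0.921 and a width difference of -262 bp, and 0 genes had a domain past both ends. With only peaks of a fold at or above the upper quartile (4.24), they were 14 peaks, 3.79% covered, a domain of 22444.5 bp, a gap of 20206 bp, 13.75% of summits in the part nearest the start, a fold difference of -0.865 and a width difference of 40.5 bp, with 0 genes past both ends and 0 among the top 100. A joining distance of 5 kb gave a median domain of 61646 bp with 0 past both ends, and 25 kb gave 690462 bp with 1 gene among the top 100. When the peaks to be joined were limited to those whose summits lay over 2500 bp away from all gene ends, the values were 262066 bp, 0 past both ends and 8 among the top 100. The width difference was 2.5 bp without flank peaks at the ends of other genes. The cause was not tested, beyond the fewer peaks or shorter gaps that these settings leave by construction. No paired analysis was possible because the list pools the 3 replicates; for the same reason no replicate was left out in turn. The depth behind the peaks is unknown, which limits what can be said of weak peaks.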

Other observations

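The genes of 100 kb or longer with the highest share of their span covered were not in the group. Fam53b led with 29.9% of 101765 bp, ahead of Rab11fip4 with 29.1% and Itpk1, a kinase of inositol phosphates, with 29.1%. Dnmt3a, the de novo DNA methyltransferase, had 40 peaks over 28.3% of 112885 bp and no peak within 1 kb of either end of its RefSeq span. By covered bp in the span, Ptprn2 (150312 bp) and Cdh13 (146461 bp) exceeded Nav2 (141944 bp), but their peaks were broken into domains of 207712 and 345611 bp, against 746660 bp for Nav2. Camta1, Tenm4 and Arhgap26 followed with 122530, 122414 and 118743 bp. These genes were picked out after their values were seen.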
